A study of Oryzias latipes with 60 samples.

Results

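Wild-type juvenile medaka that had spent 5 days in a petri dish with DMSO, a vehicle control of the study, were compared with wild-type juveniles kept in ordinary housing. The comparison rests on 10 of the 60 fish of the series, and the fish were chosen by their labels alone: fish 43 to 47 form the DMSO group and fish 68 to 72 the untreated group. In the labels of the DMSO fish the vehicle is spelled with a zero as its last character, and it was read as DMSO. The series also covers medaka carrying xmrk, an oncogenic receptor tyrosine kinase, and fish of either genotype received cisplatin at 70 µM, trametinib at 20 nM, saline, DMSO or nothing. Each library is poly-A RNA of a whole fish, 3-4 weeks old and about 10 mm long per the labels. Neither group of the comparison carries the transgene per its label, and neither received a drug. The DMSO concentration, the feeding in the dish and the number of fish per dish are not stated in the labels. The 2 groups differ in the solvent and in the dish at the same time, so these cannot be told apart within the comparison.

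The medaka is a small freshwater teleost. In teleost fish, handling and confinement are known to activate the hypothalamus, pituitary and interrenal axis, whose end product is cortisol, and a short fast is known to shift liver and gut metabolism. DMSO is an aprotic solvent that crosses membranes and is widely used to bring poorly soluble drugs into water. The count table names genes by Ensembl identifier only, and 0 of its 20459 identifiers matched the RefSeq gene table, so no gene can be given a function here. The 13 gene lists prepared for stress, fasting, xenobiotic metabolism and similar programmes could not be applied for the same reason, nor could marker genes be used to check the tissue. In whole-fish RNA, fewer cells of a type and less RNA per cell cannot be told apart.

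Libraries of untreated fish held 44128531 to 54565210 counts and those of DMSO fish 41655608 to 66545166. All 20 pairs of libraries within the groups differed by far more than sampling noise (smallest chi-square 48.5 per gene), so each was counted as a separate fish. The labels give no batch, nor do they say whether fish shared a dish, so p-values rest on fish taken as independent. Fish 47 stood apart from the other DMSO fish. Its median absolute distance from the mean of the rest of its group was 0.59 on the log2 CPM scale, against 0.30 to 0.35 in the other 4 DMSO fish and 0.14 to 0.18 in the untreated fish. CPM are read counts per library size, scaled here also by the TMM factor, which corrects for a few abundant genes taking up reads.

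A pair of genes that differ between the genotypes was read in the 10 fish as a check of the labels. They had the largest difference in either direction among the genes called between untreated transgenic and untreated wild-type fish and of average log2 CPM of at least 1. A split between the untreated groups follows from that choice and does not check their labels. Only fish outside the untreated groups are checked this way. ENSORLG00000000443, read at 3.62 to 12.7 CPM in the 10 untreated and DMSO transgenic fish, was at or below 0.07 CPM in the 5 untreated wild-type fish and in DMSO fish 43, 45, 46 and 47, but stood at 4.88 CPM in DMSO fish 44. ENSORLG00000019887, read at no more than 0.11 CPM in the same 10 transgenic fish, lay between 9.70 and 15.8 CPM in untreated wild-type fish. In the DMSO fish it stood at 0.04 CPM in fish 43, 0.08 in fish 44, 12.2 in fish 45, 53.6 in fish 46 and 39.9 in fish 47. Fish 44 thus lay in the transgenic range for both genes and fish 43 for the second only, and they are called wild type below by label. These genes did not track the label in other wild-type groups either: on the 60-fish scale the first stood at 3.06 CPM in saline fish 35 and 6.48 CPM in cisplatin fish 40, where the second was at 19.4 and 36.2 CPM. The second was at 0.49 CPM in cisplatin fish 41. Fish 44 was the only fish of the 5 wild-type groups in the transgenic range for both. The first gene was called between the housing groups (log2 fold change 4.52, SE 1.34, edgeR adjusted p = 0.0126), and without fish 44 its log2 fold change was -0.63. The second gene was not called (0.66, SE 0.99, adjusted p = 0.631).

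A large share of the genes differed between the dish and ordinary housing. Of 18623 genes tested, 7145 (38.4%) passed edgeR's quasi-likelihood test at a Benjamini-Hochberg adjusted p under 0.05, which is what called means here, and 3934 of them were higher and 3211 lower in DMSO fish. The split depended on the scaling: with library totals alone, 7201 genes were called, 2427 higher and 4774 lower, and the median log2 fold change of all genes moved from 0.01 to -0.21. Most changes were modest, with a median of 1.76-fold among the genes that rose and 1.63-fold among those that fell. At least 2-fold changes were seen in 2101 called genes (11.3% of those tested), 1344 higher and 757 lower. Among changes of over 16-fold, 21 genes rose and 4 fell, and in the class of 4 to 16-fold 208 rose and 48 fell. Whether the excess of rises among large changes holds under the other settings was not tested. The 5 DMSO fish lay wholly above the 5 untreated fish for 2383 genes and wholly below them for 2283, together 25.1% of the genes tested. A group of 2847 genes, 1635 higher and 1212 lower, was called in the same direction under all 21 alternative settings tried. That number, here and below, counts the fit without fish 47 again among the fits that leave out each fish. Without fish 47 the call count was 6956 and without fish 44 and 47 it was 6505. The count also depended on which fish shared the fit. It was 5458 of 18348 genes with the 10 wild-type fish fitted alone. With all 60 fish in 1 fit it was 3439 of 18880.

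**Figure D1:**
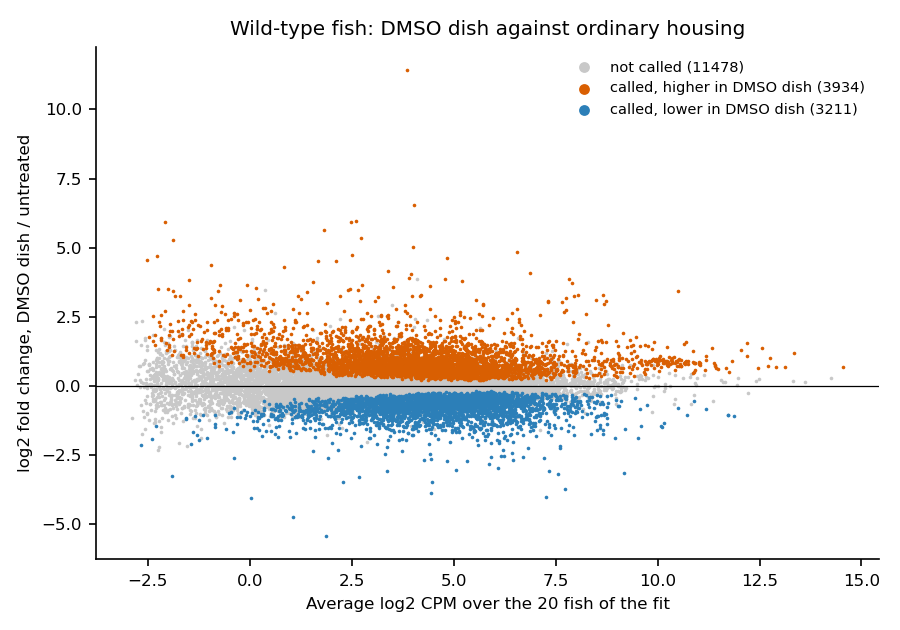
log2 fold change of DMSO dish fish over untreated fish (vertical axis) against the average log2 CPM over the 20 fish of the fit (horizontal axis), with 1 point per gene. Of the 18623 genes, 3934 were called higher and 3211 lower, and the largest rise, at a log2 fold change of 11.42, stands far above all others.

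Rises outnumbered falls among the most abundant genes. In the class of highest mean CPM over the 10 fish, 161 of 251 genes rose and 19 fell, and their median log2 fold change was 0.72. In the largest class, of 6943 genes of middle abundance, 1586 were called higher and 1323 lower. Between it and the highest class lay classes of 4106 and 838 genes, where falls outnumbered rises. There, 947 and 202 genes were called higher and 1117 and 211 lower. Rises again outnumbered falls in the less abundant classes of 3967 genes (698 against 439) and 1063 genes (164 against 63). Below 1 CPM only 14.8% of 1455 genes were called, 176 higher and 39 lower. Read depth per gene differs between these classes, so their call rates do not compare the size of the response. Of the 100 most abundant genes, 70 were called higher and 7 lower. Without fish 47 these numbers were 62 and 9, and with library totals alone 62 and 12. In the highest class, 136 of 242 genes were called higher and 24 lower without fish 47, and 129 and 32 with library totals alone. In each case the DMSO fish took part in the ranking by abundance. A gene that is high in DMSO fish thus enters the top class more easily. How much of the excess of rises follows from that ranking was not tested.

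A shift was also seen in how the reads were shared out. The 10 most abundant genes of each fish, picked fish by fish, took 10.8%, 10.5%, 9.71%, 9.66% and 9.87% of the counts in untreated fish 68 to 72. In DMSO fish 43 to 47 they took 13.2%, 11.1%, 11.8%, 12.7% and 15.5%. The groups did not overlap, at 12.9% ± 1.68 (SD, n = 5) against 10.1% ± 0.528 (n = 5; exact permutation test, two-sided, p = 0.00794; Benjamini-Hochberg adjusted over 4 library measures, 0.0317), and a design of this size can reach no smaller p. The 100 genes most abundant over the 10 fish took 27.5% to 29.4% of the counts in untreated fish and 30.3% to 39.3% in DMSO fish. Fish 46 (37.3%) and 47 were highest. The DMSO fish took part in the choice of these 100 genes, which favours a higher share in them. The TMM factor was 0.91 ± 0.137 in DMSO fish and 1.06 ± 0.016 in untreated fish (n = 5 each; exact permutation p = 0.0397, adjusted p = 0.0794), which did not pass after adjustment. DMSO fish 45 had a factor of 1.07, inside the untreated range of 1.04 to 1.08, while fish 46 and 47 had 0.836 and 0.725. Total counts (exact permutation p = 0.556, n = 5 each) and the number of genes detected (19298 ± 137 against 19233 ± 32.6, n = 5 each, exact permutation p = 0.317) did not pass the test. Without fish 47, which had the fewest genes detected (19075), the difference in genes detected was 121 and the groups did not overlap (exact permutation p = 0.00794, not adjusted). Fish 47 also had the fewest counts (41655608), and without it the DMSO minus untreated difference in total counts rose from 3169490 to 5981190. The part of depth in the genes detected was not tested.

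**Figure D2:**
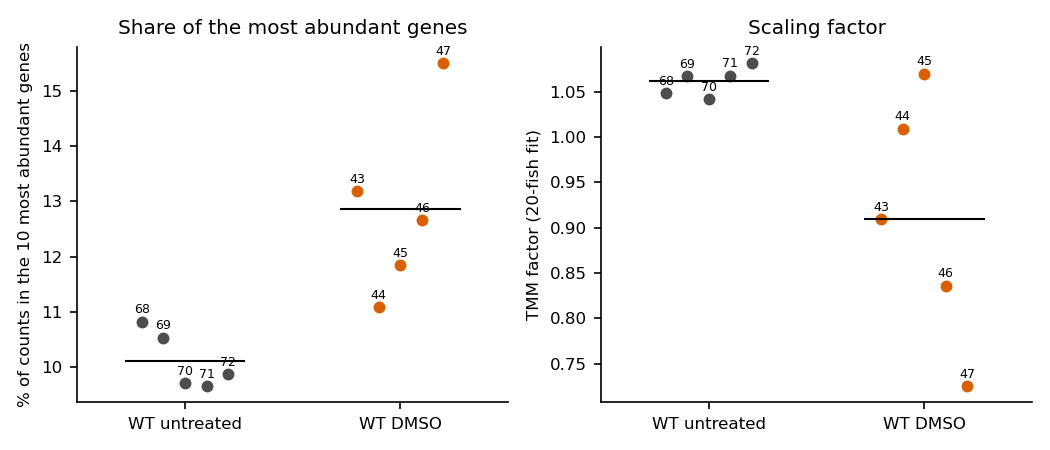
Percentage of counts in the 10 most abundant genes of each fish (left) and TMM factor of the 20-fish fit (right) in the untreated and DMSO wild-type fish. The fish number is beside each point and the group mean is a line. All 5 DMSO fish lie above all 5 untreated fish on the left, from 11.1% to 15.5% against 9.66% to 10.8%, and the DMSO fish are scattered on the right.

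ENSORLG00000019801 had the largest rise among called genes of average log2 CPM of at least 1 whose groups did not overlap. It had no read in untreated fish 69, 70 and 72, 3 reads in fish 68 and 1 read in fish 71. In DMSO fish 43 to 47 it had 360, 6442, 2040, 1567 and 1179 reads, or 7.08, 127, 28.7, 37.4 and 39.03 CPM. All 5 DMSO fish lay far above the untreated fish, though the lack of overlap itself was required by the choice. Fish 44 was the highest. Pooled over fish the ratio of read rates was 3119 (exact 95% interval 1218 to 11451, counting error only), and the fitted log2 fold change was 11.42 (SE 2.46, edgeR adjusted p = 0.00155). This was the only gene that was at or above 1 CPM in all 5 DMSO fish and below 0.1 CPM in all 5 untreated fish, and 0 genes showed the opposite pattern.

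Other groups showed both states of ENSORLG00000019801. Scaled over all 60 fish, wild-type saline fish ranged from 0.07 to 86.9 CPM with a median of 25.7. In wild-type fish, trametinib libraries ranged from 0.02 to 21.2 CPM and cisplatin libraries from 0.04 to 64.0 CPM, so each of these dish groups also held fish that barely expressed it. In untreated transgenic fish it was at 10.1 CPM in fish 74 and 15.2 CPM in fish 77, with at most 0.06 CPM in the remaining 3, while transgenic DMSO fish held 0 to 9.35 CPM. Among transgenic fish it was not called (log2 fold change -0.42, SE 1.39, adjusted p = 0.864). The difference between genotypes did not pass the test (11.84, SE 2.84, edgeR adjusted p = 0.0779).

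ENSORLG00000012618 was the most abundant of the called genes that rose at least 2-fold without overlap between the groups. Untreated fish 68 to 72 held 6479, 5072, 6471, 6800 and 7266 CPM. DMSO fish 43 to 47 held 10944, 7830, 12857, 17350 and 24884 CPM. The groups did not overlap, and the values of fish 46 and 47, the fish with the lowest TMM factors, were the highest. Means were 14773 ± 6622 CPM (SD, n = 5) and 6418 ± 819 (n = 5), a 2.30-fold rise (SE 0.25 on the log2 scale, edgeR adjusted p = 0.000979). The log2 fold change was 0.91 with library totals alone, 0.92 without fish 47 and 0.83 with 2 surrogate variables, and it was called in each. The part of the TMM factors in this rise was not otherwise tested. Among transgenic fish the gene was not called (log2 fold change 0.12, SE 0.25, edgeR adjusted p = 0.775). The difference between genotypes did not pass the test (1.08, SE 0.36, edgeR adjusted p = 0.158). Scaled over the whole series, wild-type trametinib fish stood at 4060.5 to 7609 CPM and overlapped untreated wild-type fish at 4606 to 6598. Wild-type saline fish (8592 to 15946 CPM) and cisplatin fish (19714 to 33931 CPM) lay above the untreated fish.

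ENSORLG00000013460 had the largest fall among called genes of average log2 CPM of at least 1 whose groups did not overlap. Untreated fish 68 to 72 stood at 2.41, 3.04, 4.22, 7.22 and 2.70 CPM, from 134 to 411 reads. DMSO fish 43 to 47 stood at 0.04, 0.04, 0.11, 0.45 and 0.10 CPM, from 2 to 19 reads. Fish 46 was the highest DMSO fish and was still below every untreated fish. The log2 fold change was -4.74 (SE 0.55, edgeR adjusted p = 2.11e-06), 26.6-fold lower in the dish. The gene fell by nearly the same amount in transgenic fish, from 2.59 to 5.93 CPM untreated to 0.07 to 0.25 CPM in DMSO (log2 fold change -4.72, SE 0.55, adjusted p = 3.27e-06). Its level stayed low in the other wild-type dish groups, with medians of 0.03 CPM in saline, 0.21 in trametinib and 0.03 in cisplatin against 2.76 in untreated fish on the 60-fish scale. Of the 50 dish-kept fish in 8 groups, the highest stood at 2.12 CPM, in a transgenic cisplatin fish, below the lowest of the 10 untreated fish of either genotype at 2.198 CPM.

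ENSORLG00000013436 was the most abundant of the called genes that fell at least 2-fold without overlap. It stood at 1926, 2240, 1499, 2065 and 1238 CPM in untreated fish 68 to 72 and at 1056, 324, 966, 884 and 296 CPM in DMSO fish 43 to 47. DMSO fish 44 and 47 were lower than the other 3 by a clear gap. The log2 fold change was -1.35 (SE 0.31, edgeR adjusted p = 0.00209). In transgenic DMSO fish the value was -0.44 (SE 0.31, adjusted p = 0.337), and the difference between genotypes did not pass the test (-0.91, SE 0.44, adjusted p = 0.294). All 4 genes picked in the wild-type housing comparison were called in the same direction under all 21 alternatives, with adjusted p of at most 0.0217. These alternatives reuse the wild-type fish that picked the genes. Only ENSORLG00000013460 was also called in transgenic fish.

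**Figure D3:**
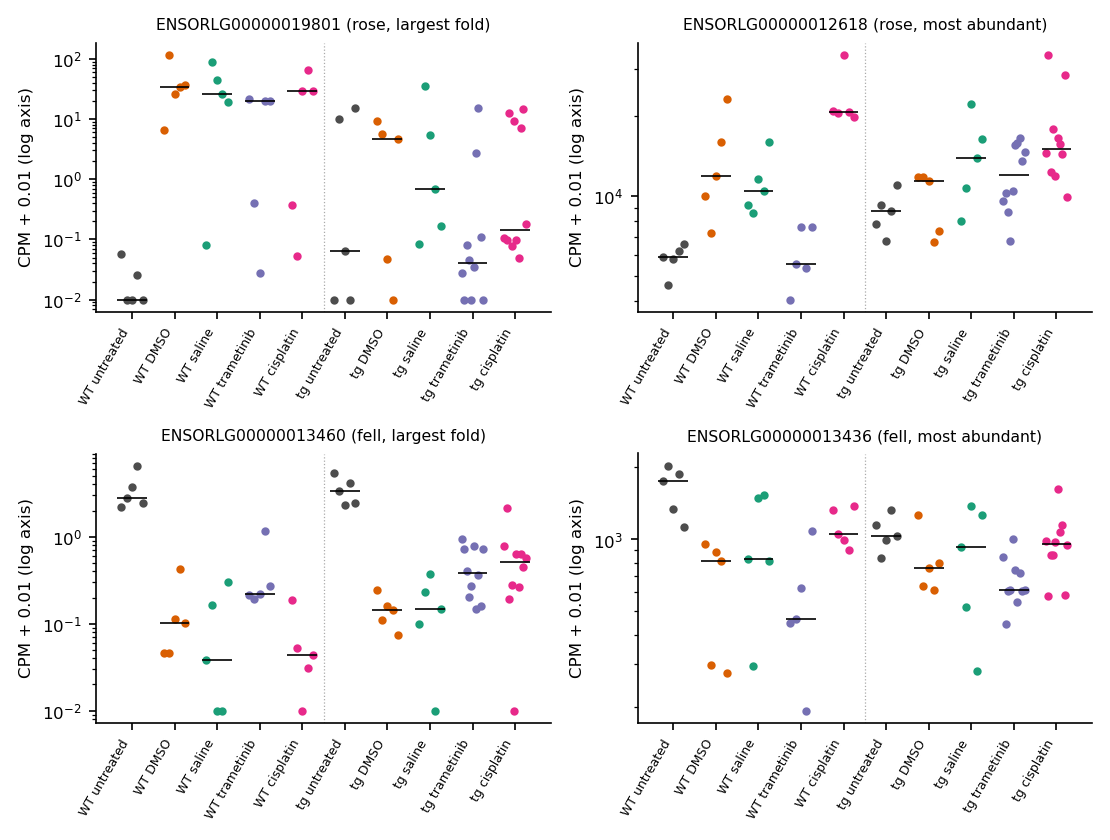
CPM plus 0.01 on a log axis, scaled over all 60 fish, of the 4 genes described for the housing comparison in each of the 10 groups (WT, wild type; tg, transgenic), with 1 point per fish and the group median as a line. ENSORLG00000013460 was lower in every dish group than in untreated fish of either genotype, whereas ENSORLG00000019801 was scattered over several orders of magnitude within most dish groups.

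DMSO fish differed more from each other than untreated fish did. The median over genes of the SD of log2 CPM between the 5 fish was 0.44 in DMSO fish and 0.19 in untreated fish, and 85.6% of the 18623 genes had the larger SD in the DMSO group. Without fish 47 the median in DMSO fish was 0.33 and the share was 76.1%. In 522 genes the highest and lowest DMSO fish differed over 16-fold, against 286 genes in untreated fish and 329 among the 4 DMSO fish other than 47. In transgenic fish the median SD was 0.25 in DMSO and 0.23 untreated, and 55.4% of genes had the larger SD in DMSO. On the scale of all 60 fish, the wild-type groups had medians of 0.19 untreated, 0.23 in saline, 0.33 under trametinib, 0.35 under cisplatin and 0.44 in DMSO. The DMSO median was the largest of the 5 wild-type groups, but transgenic saline (0.88) and transgenic cisplatin (0.70) lay above it. These transgenic groups also held the lowest TMM factors of the series, down to 0.232 in saline and 0.292 in cisplatin. The part of such libraries in their medians was not tested. The part of the genotype readings of fish 43 and 44 in this spread was not tested.

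**Figure D4:**
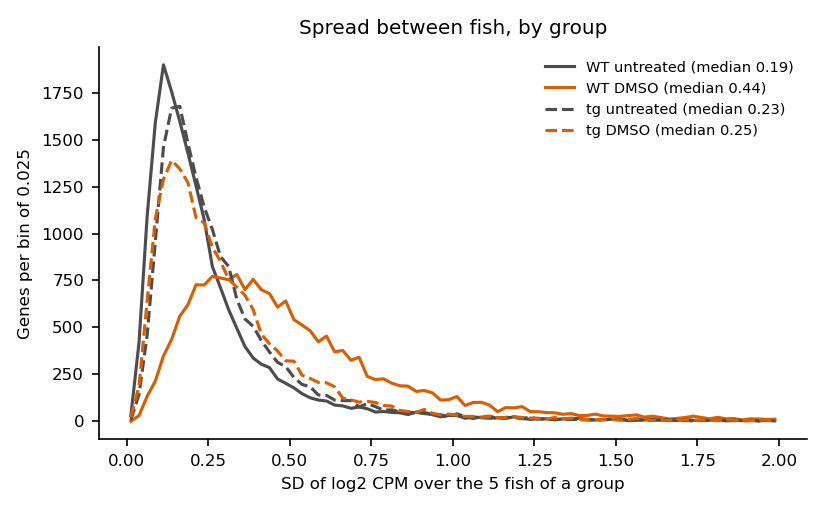
Number of genes (vertical axis, bins of 0.025) by the SD of log2 CPM over the 5 fish of a group (horizontal axis) for untreated and DMSO fish of both genotypes. The wild-type DMSO curve lies to the right of the other 3, with a median of 0.44 against 0.19 to 0.25.

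The transgenic fish give a repeat of the housing comparison that shares no library with the wild-type one. In a fit of the 10 transgenic fish alone, 5917 of 18380 genes (32.2%) were called between DMSO and untreated fish, 2585 higher and 3332 lower. Of the 7118 wild-type calls found in both tables, 90.7% had the same sign in transgenic fish, against 71.2% of all 18379 genes. The share was 88.5% for wild-type rises and 93.4% for falls. It was 93.7% when calls came from the 10 wild-type fish fitted alone, a fit that shares no library with the transgenic one. Genes called in both with the same sign numbered 3841, which is 53.8% of the wild-type calls and 64.9% of the transgenic ones, and 40 were called in opposite directions. The median change of the wild-type calls was 0.76 on the log2 scale in wild-type fish, where they were chosen, and 0.44 in the same direction in transgenic fish. A group chosen by its call tends to show a larger change in the fish that chose it. Saline instead of DMSO gave a similar share in transgenic fish: 90.3% of the wild-type calls had the same sign between transgenic saline and untreated fish, against 77.8% of all genes. That comparison called 1110 genes (6.06%) with all 10 fish. Without saline fish 17, left out after the data were seen, it called 5578 (30.3%), and the share was 95.8% against 82.0% of all genes.

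Genes chosen in transgenic fish were then read in the wild-type fish, which had no part in the choice. These were the 513 genes higher and 676 lower by at least 2-fold in transgenic DMSO fish. For each fish the mean log2 CPM of the lower set was subtracted from that of the higher set. Untreated wild-type fish lay between -3.50 and -3.09 and wild-type DMSO fish between -0.99 and -0.66. The lowest DMSO fish was thus 2.10 log2 units above the highest untreated fish, or 1.14 when called genes of any fold were used, an alternative added after the data were seen. Fish 43, 44 and 47 (-0.66, -0.93 and -0.81) were not apart from fish 45 and 46 (-0.91 and -0.99). Wild-type saline fish, -0.90 to -0.66, overlapped the DMSO fish. Wild-type trametinib fish ran from -1.18 to -0.82 and cisplatin fish from -1.21 to -0.96, so all 20 wild-type fish kept in dishes lay far above the 5 in ordinary housing.

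**Figure D5:**
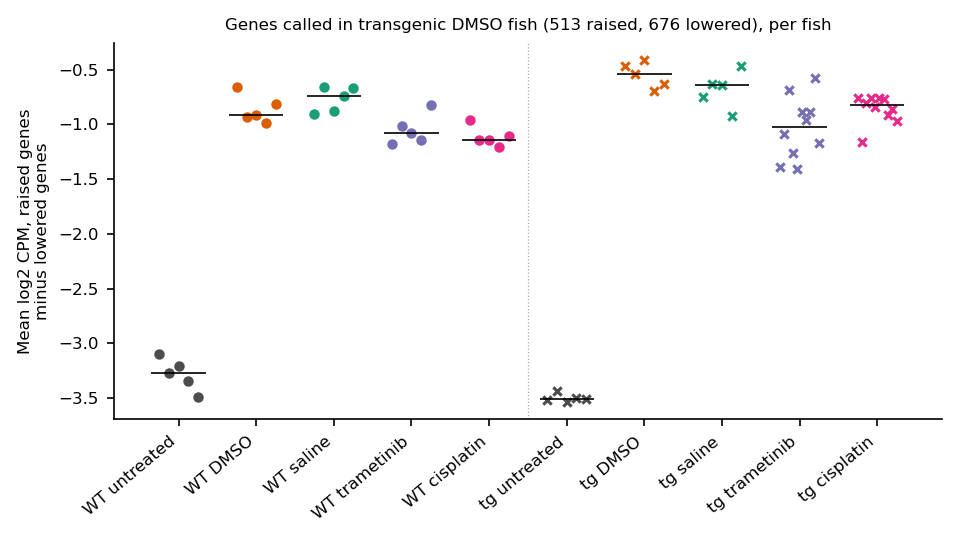
Mean log2 CPM of 513 genes raised minus that of 676 genes lowered in transgenic DMSO fish, for each of the 60 fish by group (circles, wild type; crosses, transgenic; lines, group medians). The transgenic untreated and DMSO fish chose the genes and are shown for reference. Among wild-type fish the untreated group lies between -3.50 and -3.09 and the 4 dish groups between -1.21 and -0.66.

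The vehicles were compared as DMSO against saline in wild-type fish, since both groups spent 5 days in a dish. No group of the series was kept in a dish with neither vehicle nor drug, so the solvent itself was not tested. If the fish of a group shared a dish, which the labels do not state, dish and vehicle cannot be told apart. With edgeR, 0 of 18410 genes (0%) were called, 1412 had an unadjusted p under 0.05, and the median absolute log2 difference was 0.25. Against untreated fish, in a fit of the same size with 5 and 5 fish, the median absolute log2 fold change was 0.42 and 41.2% of genes had an unadjusted p under 0.05, compared with 7.67% against saline. DESeq2 called 17 genes between DMSO and saline, 14 higher and 3 lower in DMSO, and limma-voom called 0. The log2 difference of DMSO from saline was 0.31 (SE 0.33) for ENSORLG00000012618, 0.33 (SE 1.15) for ENSORLG00000019801 and -0.59 (SE 0.48) for ENSORLG00000013436. ENSORLG00000013460 was too low in both groups to enter the fit. Given the wide spread of the DMSO fish, these values do not show that the solvents act alike.

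Whether the response to the DMSO dish differed between genotypes was tested as an interaction. It was called for 60 of 18623 genes (0.322%), 53 with a more positive and 7 with a more negative change in wild-type fish. Their absolute log2 difference of responses ranged from 0.58 to 3.39. In 26 of the 60 the housing change was called in wild-type fish only and in 15 in transgenic fish only. It was called in both for 19 genes, 12 of them in opposite directions. The wild-type-only genes mostly rose (24 of 26) and the transgenic-only genes mostly fell (13 of 15). Both shares follow largely from the split of 53 and 7, so they are not a further result. The count was not stable: it lay between 1 and 261 when any 1 of the 20 fish was left out, was 615 with DESeq2 and 9 with limma-voom, and was 0 with all 60 fish in a single fit or with library totals alone. It was 1 without untreated wild-type fish 68 or 71 or transgenic DMSO fish 57, and 261 without DMSO fish 43.

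ENSORLG00000003886 had the smallest p among genes of the first kind. It stood at 71.9, 88.6, 72.7, 79.97 and 103 CPM in untreated wild-type fish 68 to 72 and at 64.5, 78.5, 88.0, 82.1 and 64.3 CPM in DMSO fish 43 to 47. The wild-type groups overlapped. In transgenic fish it fell from between 85.55 and 123 CPM untreated to between 24.3 and 43.2 CPM in DMSO, without overlap (log2 fold change -1.74, SE 0.16, adjusted p = 1.84e-07). The difference of the responses was 1.60 (SE 0.22, edgeR adjusted p = 0.00755). It was called under 28 of 30 alternatives, not with all 60 fish in 1 fit (adjusted p = 0.423) or with library totals alone (0.0779). These 30, here and below, count the fit without fish 47 again. On the 60-fish scale, wild-type saline fish stood at 42.2 to 56.0 CPM, below all untreated wild-type fish at 64.9 to 93.3 CPM. Wild-type trametinib (40.9 to 88.2 CPM) and cisplatin fish (53.8 to 91.0 CPM) overlapped the untreated fish. Transgenic saline and cisplatin fish stood at 3.05 to 31.2 and 8.50 to 35.3 CPM, and transgenic trametinib fish at 29.7 to 106 CPM.

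ENSORLG00000011669 had the smallest p among genes of the second kind and moved in opposite directions. It fell in wild-type fish, from 61.8, 55.1, 46.6, 51.2 and 53.4 CPM in untreated fish to 40.7, 40.6, 37.4, 32.8 and 26.3 CPM in DMSO fish (log2 fold change -0.59, SE 0.12, adjusted p = 0.000612). It rose in transgenic fish, from between 33.001 and 39.5 to between 42.8 and 57.6 CPM (log2 fold change 0.39, SE 0.12, adjusted p = 0.0184). The groups did not overlap in either genotype. The gene already differed between untreated genotypes (transgenic minus wild type -0.56, SE 0.12, edgeR adjusted p = 0.0145). On the 60-fish scale, transgenic saline fish stood at 3.62 to 38.4 CPM, overlapping untreated transgenic fish at 29.4 to 35.2 CPM. Wild-type saline fish stood at 34.5 to 43.6 CPM, against 41.6 to 56.3 CPM untreated. The difference of responses was -0.98 (SE 0.17, edgeR adjusted p = 0.0238), and the call was lost in 5 of 30 alternatives: with all 60 fish (adjusted p = 0.923), with library totals alone (0.0607), and without wild-type untreated fish 68 (0.0701) or 71 (0.0594) or transgenic DMSO fish 57 (0.0584). The interaction genes were chosen for their p, so these values describe the extremes of the 60.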

How the data were processed

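Poly-A RNA of whole medaka was sequenced by the authors, who deposited raw read counts for 20459 Ensembl genes in 60 columns, 1 per fish. Each column name matched 1 sample title. Per the submitters' processing notes, TopHat2 (listed as version 2.2.4) and featureCounts were used. Build, annotation release, strand setting and treatment of multi-mapping reads were not stated in any source available for these counts, so overlapping genes and near-identical copies are uncertain.

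Counts of the 20 untreated and DMSO fish of both genotypes were fitted together as 4 groups in edgeR 4.0.16 (R 4.3.3) with filterByExpr, TMM scaling, robust dispersions and quasi-likelihood F tests. Adjusted p-values are Benjamini-Hochberg over all genes tested. Standard errors were taken from the F statistic. The transgenic fish, and the wild-type DMSO and saline fish, were also fitted alone, with 10 libraries each. Log2 CPM used a prior count of 2. Library measures were compared by two-sided exact permutation tests. The procedure was tested on simulated data in which each gene had the same dispersion in all groups. The unequal spread of the real groups was not simulated.

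Genes named were, per direction, the largest fold change and the most abundant gene changed at least 2-fold, among called genes with average log2 CPM of at least 1 and no overlap of the fish. The genotype genes had the largest fold change, per direction, among genes called between untreated genotypes with the same minimum of average log2 CPM, and the interaction genes, picked after values were seen, the smallest p per direction. The comparison, lists and rules were chosen with earlier results of these data known. Alternatives used limma 3.58.1, DESeq2 1.42.0 and sva 3.50.0.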

Additional observations from a re-analysis of the deposited data

Results flagged for a closer look

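Of 54 groups of 4 to 10 fish examined by Dixon's test, 7 held a fish far from the rest of its group. The test flags about 1 in 20 by chance when values are normal. Many values here were CPM of genes picked from these data, and the groups shared fish, so that rate is no chance level for the 7. In wild-type DMSO fish these were fish 44 for ENSORLG00000019801 (127 CPM), fish 46 for ENSORLG00000013460 (0.454 CPM), fish 44 for ENSORLG00000000443 (4.88 CPM), and fish 47 for its distance from the rest of the group (0.59 on the log2 scale). In transgenic DMSO fish, fish 53 stood out for ENSORLG00000013436 (1346 CPM) and for ENSORLG00000011669 (57.6 CPM). Among transgenic cisplatin fish, fish 21 had the lowest score of dish genes at -1.16. Without fish 44 the log2 fold change of ENSORLG00000019801 was 10.65, and without fish 46 that of ENSORLG00000013460 was -5.69.

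The response to the DMSO dish differed between wild-type and transgenic fish by the interaction test for 60 genes, among them ENSORLG00000003886 (log2 difference 1.60) and ENSORLG00000011669 (-0.98).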

How the results depend on the processing

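With all 60 fish in 1 fit, 3439 genes were called between DMSO and untreated wild-type fish (2165 higher, 1274 lower), and 3412 of the 7145 calls were shared. Leaving out each fish gave 6271 to 7581 calls, and the other alternatives 5458 to 7773. The interaction count was 0 with all 60 fish (850 genes at an unadjusted p under 0.05) and with library totals alone (3490), 615 with DESeq2, 9 with limma-voom, 25 with 2 surrogate variables and 20 without fish 44 and 47, and 1 to 261 when each fish was left out. DMSO against saline gave 17 calls with DESeq2 and 0 when each fish was left out. The share of wild-type calls with the same sign in transgenic fish was 93.7% with the 10 wild-type fish fitted alone, 92.4% without fish 44 and 47, 89.3% with DESeq2, 95.8% for saline without fish 17, and 89.1% to 92.1% when each fish was left out. ENSORLG00000019887 turned to a log2 fold change of -2.58 with limma-voom, -1.01 with 2 surrogate variables and -0.017 to 0.978 when each fish was left out. ENSORLG00000000443 turned to -0.40 without fish 44 and 47 and ranged from -0.63 to 4.85. Leaving out each fish, the DMSO minus untreated difference was -241200 to 5981190 in total counts, 33.5 to 121 in genes detected (past the test only without fish 47) and -0.191 to -0.105 in TMM factor. The causes were not tested. No paired analysis was possible because the fish numbers are unique to each fish, so the groups share none. Depth limits the genes of few reads.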
